A study of Caenorhabditis elegans with 2 samples.

Results

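The genes described here are 35 that encode transcription factors known for specifying neurons in Caenorhabditis elegans, taken by name from a fixed list whether or not SYD-9 was found near them. All 35 matched an annotated gene, of 19973 nuclear protein-coding genes. They comprise 17 homeobox genes, 7 basic helix-loop-helix (bHLH) genes, 4 zinc finger genes, 3 nuclear receptor genes and 4 of other families. The data are chromatin immunoprecipitation and sequencing (ChIP-seq) maps of SYD-9, a zinc finger protein, in whole late embryos. The worms were hermaphrodites of strain OP488, which carries the unc-119(tm4063) mutation on III and the transgene wgIs488 for SYD-9 with GFP and FLAG at its C terminus, and DNA was precipitated through GFP at 4 h after bleaching. There are 2 biological replicates of this 1 group and 1 transgenic line, no precipitation from worms without the tag was analysed here, and the labels do not state the promoter that drives the transgene. Whole embryos mix all tissues, so a site used in a few neurons and a weak site used in many cells cannot be told apart.

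Neuron identity in the worm is set in steps. Proneural bHLH proteins act in dividing precursors, where they pair with a shared E protein partner. Terminal selectors, many of them homeodomain proteins, then switch on the transmitter, receptor and channel genes of a given neuron type and often maintain their own expression through sites in promoters and introns. Many of these genes have long introns, and for that reason introns were examined beside promoters.

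A region in the deposited lists has a summit, its highest point, and a signal value, which is the score from the authors' peak caller, in units given in none of the sources used here. The pooled list holds 13472 regions and reaches into background, because it was made as input for the irreproducible discovery rate (IDR) step, which keeps regions that rank alike in both replicates. The IDR set is its 941 highest regions, and the lowest of them scores 95.2. Replicate 1 has 10468 regions and replicate 2 has 20425, with lowest scores of 20.2 and 16.9, so scores of different lists do not share a scale. A summit of the pooled list is called a candidate here, whether or not it is a binding site, and a promoter candidate lies within 1000 bp of one of the gene's annotated 5′ ends. Read depth is unknown, since the lists hold no counts, and no test between groups is possible with 1 group.

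The sequences at the strongest candidates outside the IDR set show what the results on these genes rest on. The first 4 below are windows of the ce11 genome (RefSeq, plus strand) centred on the summits with the highest signal values that could be shown, and the fifth is an intron window of ast-1. The fifth was chosen after its sequence was seen, because it alone among them holds 1 of the words described under base composition further on, marked there in capitals.
ast-1, intron, chrII:4131491-4131641: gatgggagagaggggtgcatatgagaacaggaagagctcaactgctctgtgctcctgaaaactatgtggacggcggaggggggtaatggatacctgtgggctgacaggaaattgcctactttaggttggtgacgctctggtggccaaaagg
vab-7, intron, chrIII:10922620-10922770: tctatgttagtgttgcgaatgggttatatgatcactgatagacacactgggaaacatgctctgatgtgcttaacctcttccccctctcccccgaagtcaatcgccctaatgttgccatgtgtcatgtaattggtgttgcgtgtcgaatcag
vab-7, upstream, chrIII:10920160-10920310: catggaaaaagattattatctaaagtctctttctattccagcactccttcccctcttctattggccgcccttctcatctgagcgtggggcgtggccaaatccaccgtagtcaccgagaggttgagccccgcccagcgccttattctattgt
zag-1, intron, chrIV:3859063-3859213: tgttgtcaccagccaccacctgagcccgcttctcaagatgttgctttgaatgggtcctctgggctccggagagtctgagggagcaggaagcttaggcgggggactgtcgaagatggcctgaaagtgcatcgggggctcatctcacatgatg
ast-1, intron, chrII:4129570-4129720: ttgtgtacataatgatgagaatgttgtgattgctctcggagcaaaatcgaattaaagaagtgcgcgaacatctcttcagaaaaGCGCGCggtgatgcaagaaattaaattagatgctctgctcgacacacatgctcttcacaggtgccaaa

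No neuronal factor gene had a summit of the IDR set near a 5′ end or in an intron. Near 5′ ends the count was 0 of 35, where 3.41% of all protein-coding genes (682 of 19973) had such a summit, a share that corresponds to 1.2 genes in a list of this size. In introns it was also 0 of 35, where 1.13% of genes with introns had one, which corresponds to 0.396 genes. An absence of this size is therefore near the background and is not a result particular to the list. No gene gained an IDR summit when the distance was widened to 2000 bp, at which 5.04% of all genes have one.

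Few of these genes had an IDR summit in their wider surroundings. The median distance from a 5′ end to the closest IDR summit was 33255 bp, against 45294 bp over all protein-coding genes, and 33 of the 35 genes (94.3%) had none within 10000 bp, against 83.5% of all genes. The closest was 2932 bp downstream of the 5′ end of lin-32, which encodes an atonal-like proneural factor, beyond the gene's own 3′ end on X. That region scored 186.6 in the pooled list, 89.8 in replicate 1 and 105 in replicate 2, and its summit at 2227190 lay beside an annotated tRNA gene (WBGene00023139). The next was 8240 bp upstream of lim-6, a LIM homeobox gene of GABAergic neurons, with a score of 138.1, and its nearest 5′ end was that of unc-1.

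Below the IDR threshold, weak candidates were found at many of the genes. Of the 35 genes, 16 (45.7%) had a pooled summit no more than 1000 bp from a 5′ end, where 30% of all protein-coding genes had one, a share that corresponds to 10.5 genes. Replicate 1 gave 13 genes (37.1%, background 25.6%) and replicate 2 gave 20 (57.1%, background 39.4%). Some of these genes have several annotated 5′ ends, up to 9 at egl-44, and so more sequence searched. In the pooled list the outermost 5′ end of each gene alone gave 13 genes (37.1%), against 27.4% of all genes. The count was above the background share in each of these 3 lists, and whether the difference is larger than lists of this kind vary was not tested. With support from both replicates the count was below the background share. At 3 genes (8.57%), ast-1, vab-7 and zag-1, a pooled promoter candidate had a summit of each replicate within 200 bp, where 15.6% of all genes had one, which corresponds to 5.47 genes. The gap narrowed with other settings, to 7 genes (20%, against 23.2%) for candidates within 2000 bp and 5 genes (14.3%, against 16.8%) for support within 500 bp.

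**Figure D1:**
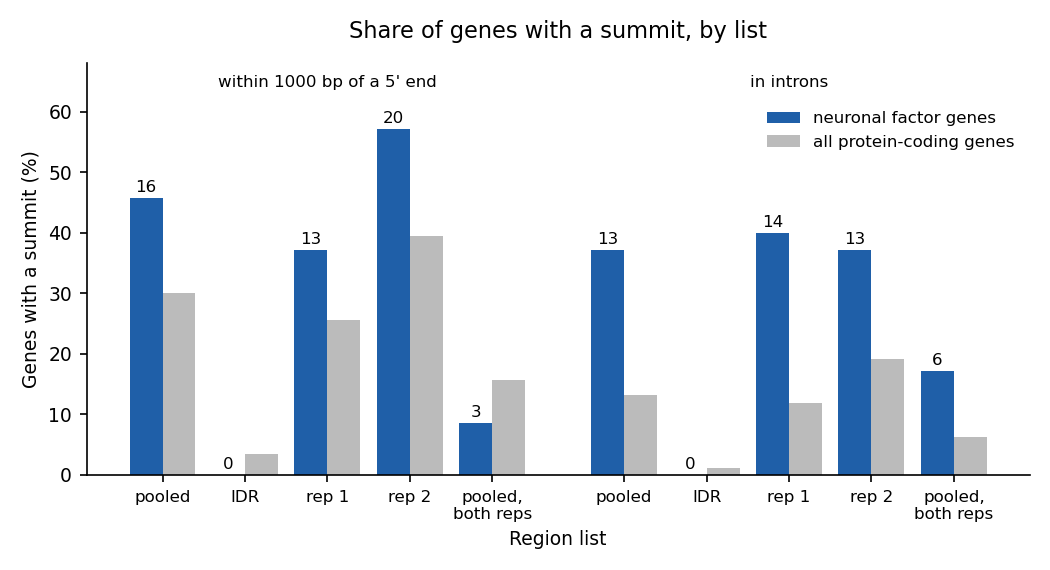
Share of genes (%, vertical axis) whose 5′ end has a summit within 1000 bp (left) or in an intron (right) in each region list, for the 35 neuronal factor genes (blue, number of genes above the bar) and all protein-coding genes (grey; for introns, genes with introns). The blue bar is above the grey one in the pooled and both replicate lists, at 0 in the IDR set, and below the grey one for promoter candidates found in both replicates.

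The weak promoter candidates of these genes scored somewhat lower than those of other genes. The 16 genes with a pooled promoter candidate had highest scores of 34.7 to 58.6 with a median of 44.1, and the other 5966 genes with one had a median of 48.2. Among genes whose highest candidate fell below the IDR set, the other genes had a median of 45.9 over 5284 genes. Of all 5982 genes with a pooled promoter candidate 11.4% reached the IDR set. The highest neuronal factor gene, ast-1, stood at the 68th percentile of those genes, and unc-42 stood at the bottom with the signal value of 34.7, at rank 13466 of 13472. The q-values in the pooled list are weak at all 38 candidates of the neuronal factor genes, introns included. Their -log10 q ran from 0.018 at unc-42 to 0.952 at the sem-4 intron, and the highest at a promoter candidate was 0.553, at ast-1. The 941 regions of the IDR set run from 1.55 to 2.02. In the replicate lists the medians were 25.1 in replicate 1 and 23.7 in replicate 2, against 26.6 and 24.9 for other genes. The pooled and both replicate lists thus placed the median promoter score of the neuronal factor genes below that of the other genes, by less than the interquartile range of either set. For the highest intron candidate per gene the pooled medians were alike, at 45.9 over 13 neuronal factor genes and 45.8 over 2535 other genes.

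**Figure D2:**
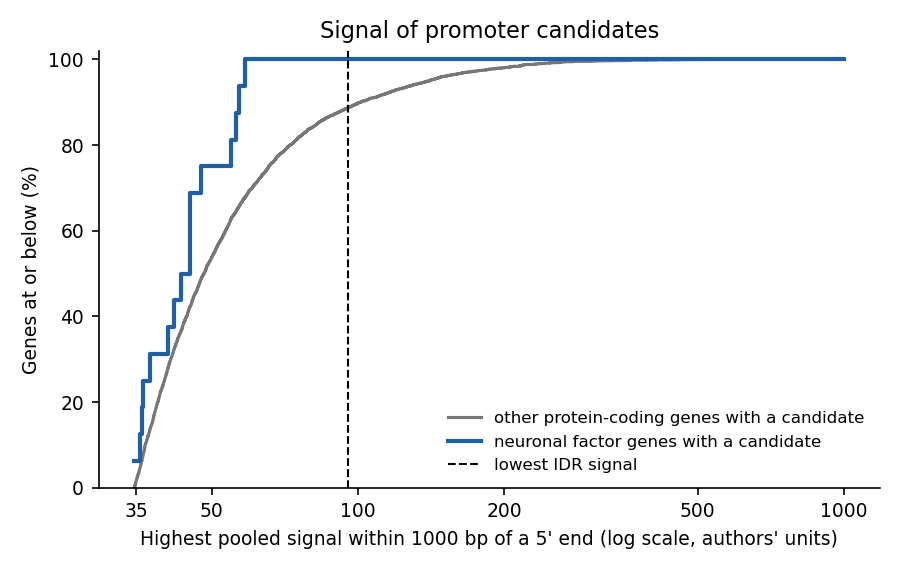
Cumulative share of genes (%) by the highest pooled signal value within 1000 bp of a 5′ end (log scale, authors' units), for the 16 neuronal factor genes with a candidate (blue) and the 5966 other protein-coding genes with one (grey). The blue curve reaches 100% at 58.6, below the lowest IDR signal of 95.2 (dashed line), which the grey curve crosses.

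Homeobox genes supplied 9 of the 16 genes with a promoter candidate. Their number is 17, so 9 of 17 had one, where 30% of all protein-coding genes did. Support from both replicates was found at 2 of the 17, vab-7 and zag-1, where 15.6% of all genes had it. The clearest was vab-7, an even-skipped homologue that sets DB motor neuron identity. Its region on III (10920005 to 10920464) scored 57 in the pooled list, 30.1 in replicate 1 and 28.8 in replicate 2, with the summit 109 bp upstream of the 5′ end in intergenic sequence, and ranked 3429 of 13472. The replicate summits lay 31 and 5 bp from the pooled one. At zag-1, a zinc finger homeobox gene needed for axon guidance, the summit on IV (3856211) lay 368 bp into the gene in an intron, with 45.2 in the pooled list, 21.5 in replicate 1 and 21.7 in replicate 2. Both zag-1 replicate values lay below the median score of their lists (25.1 and 22.9). A further zag-1 candidate 838 bp upstream scored 34.95 and had a summit of replicate 2 only (20.95).

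Each promoter candidate of the LIM homeobox genes was matched by 1 replicate. At lin-11, which acts in several sensory and interneurons and in the vulva, 2 summits lay in coding exons on I, 199 and 528 bp downstream of the 5′ end. The first scored 56.1 and was matched by replicate 1 only (31.3), and the second scored 49.3 and was matched by replicate 2 only (36.6). The replicate summits lay 329 bp apart in the same gene. At lim-4, which specifies AWB olfactory neurons, a summit 19 bp downstream of a 5′ end scored 36 and was matched by replicate 1 only (21.2). At ttx-3, the AIY interneuron selector, a summit 561 bp downstream scored 43.3 and was matched by replicate 2 only (23.9). The remaining LIM genes, mec-3 of touch receptor neurons, lim-6 and ceh-14 of the AFD thermosensory neurons, had no pooled promoter candidate. Replicate 2 alone had summits at lim-6 (18.2) and ceh-14 (21.6), and mec-3 had none in any list.

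The other homeobox genes split in the same way. At unc-86, the POU gene of touch receptor and other neurons, a summit 63 bp upstream on III (8216399) scored 45.03 and was matched by replicate 1 (28.8), and another 606 bp upstream of a 5′ end, in an intron, scored 41.2 and was matched by replicate 2 (23.6). At unc-4, which controls synaptic input to motor neurons, a summit 742 bp upstream scored 36.2, with 25.2 in replicate 1 and none in replicate 2. At unc-42, a selector of command interneurons, the only pooled candidate lay 869 bp downstream of an internal 5′ end. It lay in intergenic sequence beyond the gene's 3′ end and was matched by replicate 2 (21.9). The summit of replicate 1 (23.4) lay at another of the gene's 5 annotated 5′ ends, 758 bp downstream of it. The highest summit of replicate 2 (25.4) lay 120 bp upstream of yet another. The Pax6 gene vab-3, with head patterning functions, had summits at 956 bp downstream (40.6, replicate 2 only at 22) and 182 bp upstream (34.9) of internal 5′ ends, and neither replicate had a summit within 200 bp of the latter. No pooled promoter candidate was found at unc-30 of GABAergic motor neurons, ceh-10 of AIY, ttx-1 of AFD, ceh-36 of ASE and AWC, or tab-1, a Bsh homologue. Of these, unc-30 and ceh-36 had a summit in replicate 2 (21.9 and 18.2).

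**Figure D3:**
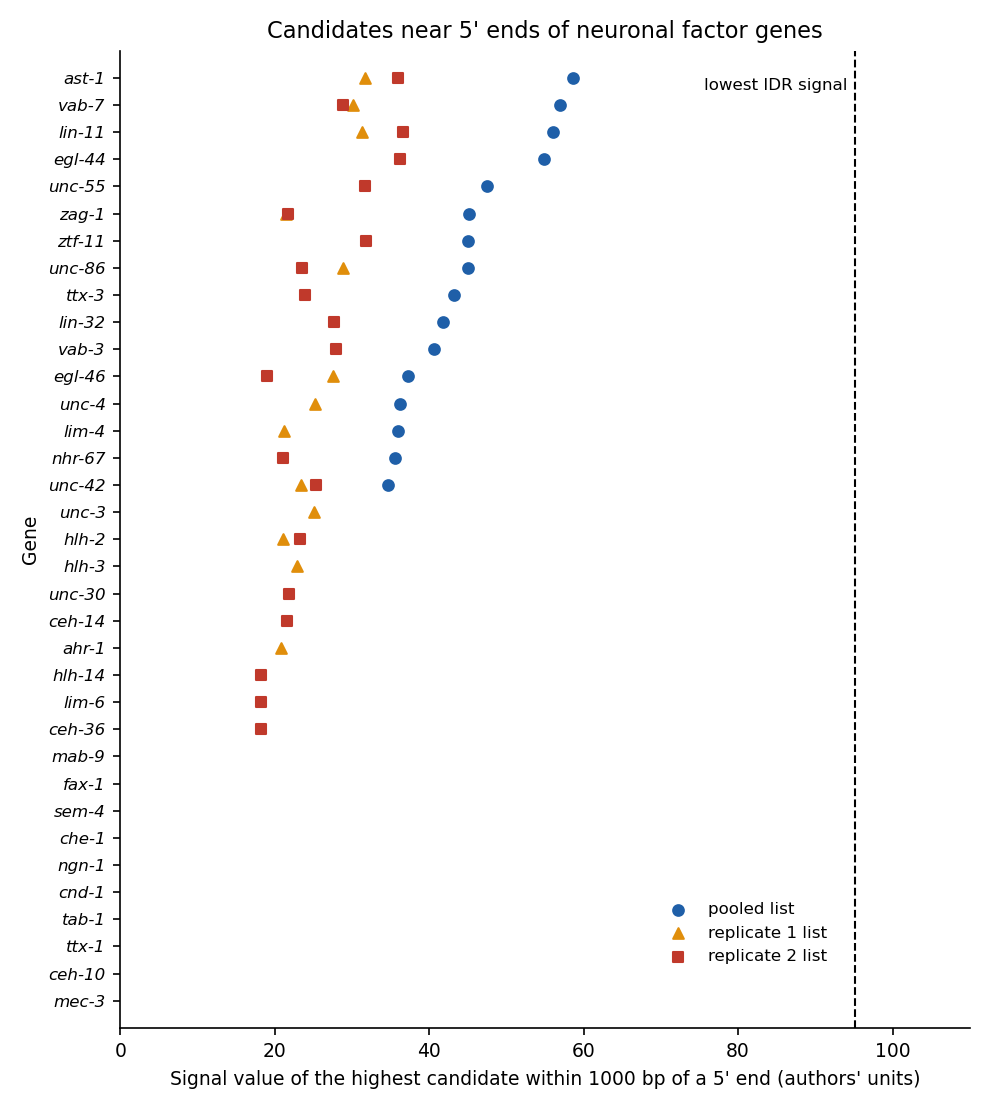
Signal value (authors' units) of the highest summit up to 1000 bp from a 5′ end for each of the 35 genes (rows), in the pooled list (circles), replicate 1 (triangles) and replicate 2 (squares); a missing mark means no summit in that list, and marks of different lists need not be the same place. All circles lie between 34.7 and 58.6, left of the lowest IDR signal of 95.2, and 10 genes have no mark.

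In the pooled list the bHLH genes had the fewest candidates, over few genes. Of 7, only lin-32 had a pooled promoter candidate, where 30% of all protein-coding genes had one. Replicate 1 and replicate 2 each had a promoter summit at 3 of the 7, against 25.6% and 39.4% of all genes. The lin-32 candidate was a summit on X (2229989) 133 bp into the gene in a coding exon. It scored 41.8 in the pooled list and 27.7 in replicate 2, and replicate 1 had no summit there. The neurogenin gene ngn-1 and the NeuroD gene cnd-1, both proneural, had no summit near a 5′ end or in an intron in any list. The achaete-scute homologues hlh-3 and hlh-14 had 1 summit each, in replicate 1 199 bp upstream (22.9) and in replicate 2 23 bp upstream (18.3). The E protein gene hlh-2, the shared dimer partner, had a summit 67 bp upstream in replicate 1 (21.02) and another 750 bp downstream in replicate 2 (23.3), 2 different places. The dioxin receptor homologue ahr-1 had a summit 73 bp upstream of a 5′ end in replicate 1 (20.8). No bHLH gene had a pooled intron candidate, where 13.2% of all genes with introns had one, and none of the 3 nuclear receptor genes did either. Over so few genes this absence is near the background. The introns of the bHLH genes sum to 11750 bp over the 7 genes, of which ahr-1 has 6712 bp.

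Of the remaining families, promoter candidates of the nuclear receptor and zinc finger genes were each matched by 1 replicate, and that of ast-1 by both. At ast-1, the ETS factor gene of dopaminergic neurons, the promoter candidate on II (4134654 to 4135113) had the highest score of all, 58.6, with 31.7 in replicate 1 and 35.9 in replicate 2. Its summit lay 475 bp downstream of the 5′ end, in a non-coding part of an exon. At egl-44, a TEAD factor gene with 9 annotated 5′ ends, a summit 152 bp downstream of an internal 5′ end scored 54.9 and was matched by replicate 2 only (36.2), and another just upstream of a different 5′ end scored 39.1 (replicate 2, 21.1). Its partner gene egl-46 had a summit 880 bp downstream at 37.3, matched by replicate 1 only (27.6). The Myt1 homologue ztf-11, a neurogenesis factor, had a summit 231 bp upstream at 45.1, matched by replicate 2 only (23.2). The nuclear receptor genes unc-55, which patterns VD motor neuron synapses, and nhr-67, a tailless homologue, had summits 278 bp upstream (47.6, replicate 2 at 31.7) and 100 bp downstream (35.6, replicate 2 at 21.1). Replicate 2 also had a summit at ztf-11 with no pooled one beside it (31.8, 312 bp downstream of a 5′ end). At egl-46 a further pooled summit lay just outside the distance used here, 1051 bp upstream, with 46.5 in the pooled list, 24.7 in replicate 1 and 27.3 in replicate 2. The ASE selector gene che-1, the interneuron receptor gene fax-1 and the T-box gene mab-9 had no summit near a 5′ end or in an intron in any list. The COE gene unc-3, the cholinergic motor neuron selector, had a promoter summit in replicate 1 only (25.1, 621 bp upstream).

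Some pooled summits 1000 to 2000 bp from a 5′ end scored higher than any promoter candidate. At zag-1 a summit 1065 bp upstream scored 70.8, with 28.7 in replicate 1 and 40.3 in replicate 2. At ceh-14 a summit 1940 bp upstream scored 69.3, with 21.3 in replicate 1 and 42.5 in replicate 2. At sem-4 a summit 1971 bp upstream scored 59.2, with 23.8 in replicate 1 and 33.9 in replicate 2. These summits were all matched by both replicates and lay below the IDR set, and none is counted among the promoter candidates.

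Over all 21 promoter candidates, 3 were matched by both replicates, 5 by replicate 1 only, 12 by replicate 2 only and 1 by neither. Replicate 2's list is the longer, and the part of list length in this was not tested. Over all genes, 42.1% of the 6938 gene-candidate pairs below the IDR set were matched by both, against 14.3% here. Support rises with score, and the promoter candidates of these genes lie low. Below a score of 40, 0 of 8 were matched by both (8.7% over all genes), from 40 to 50 it was 1 of 9 (33.8%), and from 50 to 60 it was 2 of 4 (66.6%). None scored 60 or more, where 92.2% of pairs over all genes were matched by both. In each of these 3 bands the share was below that of all genes, over few candidates. Over all 38 candidates, introns included, the share was below that of all pooled regions under a score of 50 and not below it from 50 to 70. It was 0 of 12 below 40 (7.74% of all pooled regions) and 4 of 15 from 40 to 50 (33.3%). From 50 to 60 it was 7 of 9 (66%) and from 60 to 70 it was 2 of 2 (85.4%).

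**Figure D4:**
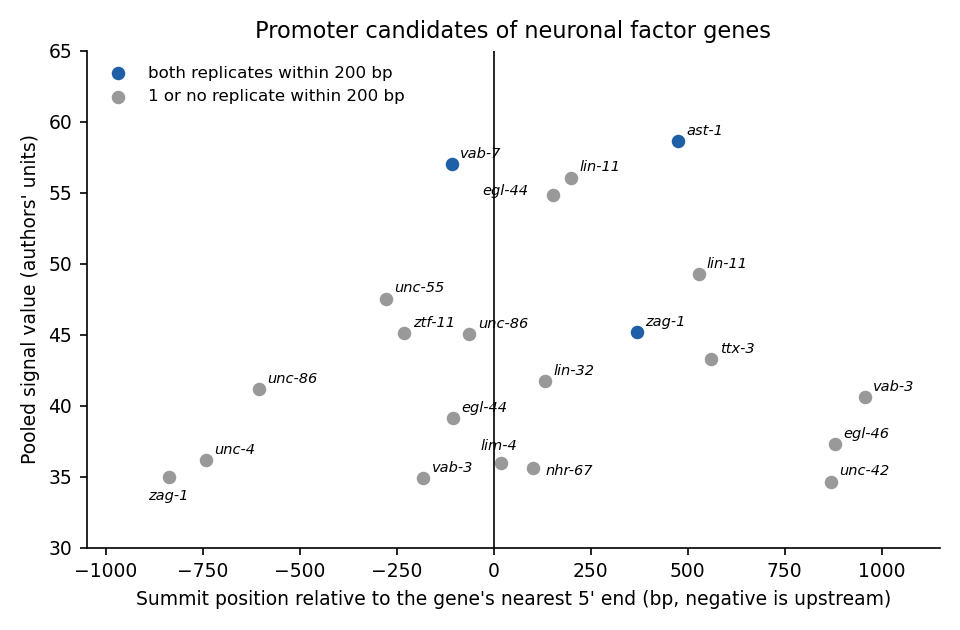
Position of each of the 21 pooled promoter candidates relative to the gene's nearest annotated 5′ end (bp, negative is upstream) against its pooled signal value (authors' units). Blue points (ast-1, vab-7 and zag-1) have a summit of both replicates within 200 bp, and grey points have 1 or none; points fall on both sides of the 5′ end.

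The promoter candidates lay inside genes more often than upstream of them. Upstream of the nearest 5′ end lay 9 of 21 (42.9%), against 59.4% of pairs below the IDR set over all genes. Intergenic sequence held 7 (33.3%, against 40.6%), introns 7 (33.3%, against 24.6%), coding exons 5 (23.8%, against 26.1%) and non-coding parts of exons 2 (9.52%, against 8.66%). For all 21 the nearest 5′ end of any protein-coding gene was that of the neuronal factor gene itself, against 84.5% over all genes, and no small RNA gene was within 200 bp of any of them, against 2.45% of those pairs. No neighbouring gene's promoter was thus closer to any of these summits. Per length of sequence within 1000 bp of a 5′ end, there were 21.2 candidates per 100 kb at these genes and 16.3 at all genes.

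Introns held 24 candidates in 133037 bp and the sequence near 5′ ends 21 in 98888 bp, or 18 and 21.2 per 100 kb. The 2 highest scores of all 38 candidates at these genes were in introns. The 24 intron candidates, 7 of which are also promoter candidates, lay in 13 of the 35 genes (37.1%), where 13.2% of all genes with introns had one. Replicate 1 gave 14 genes (40%, background 11.8%) and replicate 2 gave 13 (37.1%, background 19.1%). With a summit of both replicates within 200 bp there were 6 genes (17.1%, background 6.3%): ast-1, lim-4, sem-4, unc-3, vab-7 and zag-1. Of the 24 candidates, 11 were matched by both replicates, 4 by replicate 1 only, 7 by replicate 2 only and 2 by neither. No share over the intron candidates of all genes is given beside these counts.

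The highest intron candidate was at sem-4, a spalt-like zinc finger gene that acts in neuron and mesoderm fates. It lay on I (7040597 to 7041056) 1927 bp downstream of the 5′ end, scored 68.6 in the pooled list, 25.1 in replicate 1 and 39.97 in replicate 2, and ranked 2066 of 13472. Its score is 72.1% of the lowest IDR score. A second sem-4 candidate at 4329 bp scored 42.9, with 21.3 in replicate 1 and 22.2 in replicate 2.

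The gene with the most candidates was ast-1, with 5 in introns and 1 near its 5′ end. Its highest intron candidate (II, 4131336 to 4131795), shown first among the sequences, lay 3793 bp downstream and scored 66.8, with 29.97 in replicate 1 and 34.9 in replicate 2. Others at 2751 and 5714 bp scored 53.03 and 52.3, with 26.2 and 23.4 in replicate 1 and 22.9 and 26.9 in replicate 2. The one at 1838 bp scored 47.9, with 27.7 in replicate 1 and 18.5 in replicate 2, and the one at 4639 bp scored 36.8 and was matched by replicate 2 only (25.9). In all, 5 of the 6 ast-1 candidates were matched by both replicates, and ast-1 is 1 of the 3 genes matched by both at its promoter.

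Further intron candidates found in both replicates were at vab-7, zag-1, unc-3 and lim-4. At vab-7 the summit on III (10922695) 2351 bp downstream scored 57.2, with 22.3 in replicate 1 and 32.2 in replicate 2, so that gene had a candidate of almost equal score upstream and in an intron. At zag-1 the summit on IV (3859138) 3295 bp downstream scored 55.9, with 25.5 in replicate 1 and 32.6 in replicate 2. At unc-3 the summit on X (14776515) 2977 bp downstream scored 55.5, with 26.3 in replicate 1 and 29.6 in replicate 2. At lim-4 the summit on X (3872026) 1369 bp downstream scored 49.03, with 22.3 in replicate 1 and 29.5 in replicate 2. The other intron candidates not yet described lay at ttx-1 (45.9 and 37.1), ttx-3 (40.7), vab-3 (41.6 and 35.2) and ztf-11 (36.99). Each of these 6 was matched by 1 replicate, except the lower one at vab-3, which was matched by neither.

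These genes have more intron sequence than most, and the share of genes with an intron candidate rises with intron length over all genes. The median intron length per gene was 3179 bp for the neuronal factor genes and 765 bp for all genes with introns. Per 100 kb of intron there were 18 candidates at these genes and 11.9 at all genes. Among genes with 4000 to 8000 bp of intron, 5 of 10 neuronal factor genes had a candidate, where 39.7% of all such genes did. With 2000 to 4000 bp it was 4 of 10 (24.4%), with 1000 to 2000 bp 1 of 6 (12.8%), and with less 0 of 6 (3.82%). All 3 genes with 8000 bp or more, ttx-1, vab-3 and egl-44, had one, as did 69.6% of all such genes. In the bands where any of these genes had a candidate, the share stayed above the background, over few genes. As a ratio to the background, each was closer than the share over all of these genes was.

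**Figure D5:**
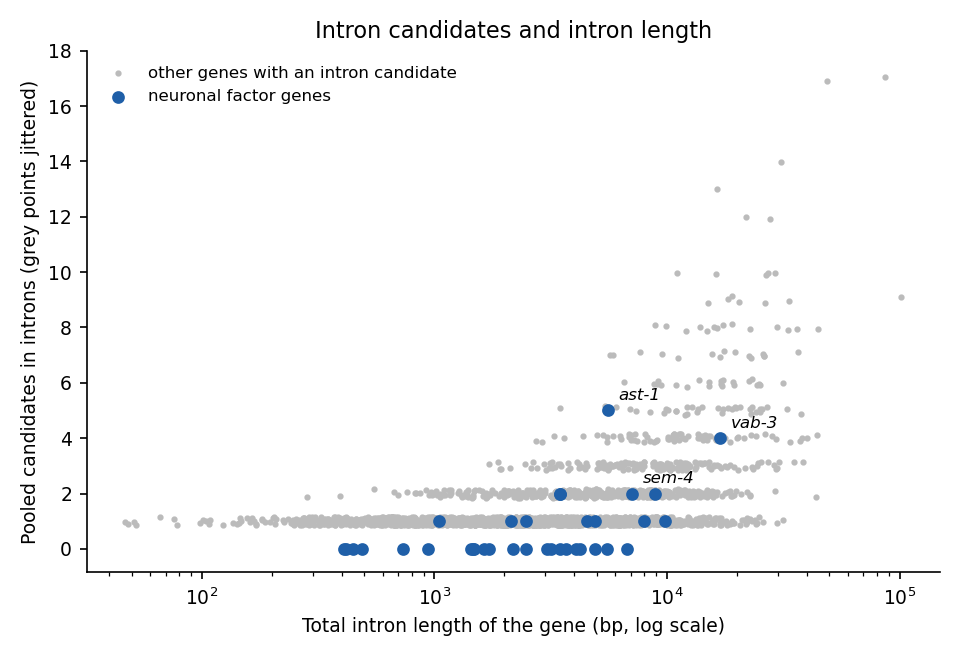
Number of pooled candidates in introns against the gene's total intron length (bp, log scale), for the 35 neuronal factor genes (blue) and other protein-coding genes with at least 1 intron candidate (grey, jittered vertically). The blue points of genes with an intron candidate lie among the grey ones. The gene ast-1 has 5 candidates in 5602 bp of intron, and vab-3 has 4 in 16956 bp. The blue points of genes without an intron candidate cannot be compared here, because other genes without one are not drawn.

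The base composition at the candidates resembled that of other weak regions rather than that of the IDR set. Within 50 bp of the summit, the median GC content was 44.6% over the 38 candidates (range 20.8% to 61.4%), 44.6% over the 5866 pooled regions below the IDR set near any 5′ end, and 52.5% over 696 nuclear IDR regions away from small RNA genes. In those IDR regions, the 6-base words found at the summit far more often than 200 to 300 bp away were GC-rich. They were led by GCGCGC (12.1% of summits, 1.36% of flanks) and, after leaving out words that overlap it, GACGCA (17.8% and 3.02%), both counted on either strand. Among the 21 promoter candidates each word was present at 1 (4.76%), against 3.32% for GCGCGC and 5.74% for GACGCA over the other weak regions near 5′ ends. GCGCGC was present at 2 of the 38 candidates (5.26%), both at ast-1 with summits at 4134884 and 4129645. GACGCA was present at 1 candidate (2.63%), at the 5′ end of lim-4. A match is a description of these letters only.

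Set beside related genes, the neuronal factors did not have the largest share with a promoter candidate. Of 30 genes used by all neurons, such as those of synaptic vesicle release, 19 (63.3%) had a pooled promoter candidate and 10 (33.3%) had one matched by both replicates. An IDR summit lay there at 2 (6.67%, against 3.41% of all protein-coding genes). Those were syd-2, the liprin-alpha gene (157), and maco-1, a macoilin gene (107). The next list was 45 terminal identity genes, such as transmitter enzymes and sensory receptors that terminal selectors switch on. Of these, 10 (22.2%) had a pooled promoter candidate and 6 (13.3%) one matched by both. Only tax-4, a cyclic nucleotide-gated channel gene, had an IDR summit near a 5′ end (2.22% of the list), 933 bp upstream (116.5). In introns the order was another, with a pooled candidate in 37.1% of the neuronal factor genes, 36.7% of the genes used by all neurons, 28.8% of other homeobox genes, 22.2% of terminal identity genes and 21.2% of other bHLH genes. The median intron length per gene in the same order was 3179, 3584.5, 1511, 1975 and 782 bp. An IDR summit lay in an intron of 2 genes used by all neurons, 1 terminal identity gene, 1 other bHLH gene and 0 other homeobox genes. Over all genes with introns the share was 1.13%. Differences between these lists were not tested.

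Transcription factor genes of the same families had IDR summits near the 5′ ends of a few genes, where 3.41% of all protein-coding genes had one. Of 80 other homeobox genes, 30 (37.5%) had a pooled promoter candidate and 16 (20%) one matched by both replicates. The only IDR summit near a 5′ end (1.25% of these genes) was at unc-62, a Meis homologue, 883 bp downstream of a 5′ end. It had a score of 95.2 at rank 940 of 941. Of 33 other bHLH genes, 13 (39.4%) had a pooled promoter candidate, 7 (21.2%) one matched by both, and 3 (9.09%) an IDR summit. Those were mdl-1, a Mad homologue (142 pooled, 54.96 in replicate 1 and 94.4 in replicate 2, 92 bp upstream), hlh-30, a TFEB homologue (131, 49.6 and 79.5, 179 bp upstream), and hlh-11 (96.5, 46.95 and 49.1, 277 bp upstream). In the pooled list the median highest promoter score was 52.9 for the genes of all neurons, 36.3 for terminal identity genes, 49.2 for other homeobox genes and 49.8 for other bHLH genes, beside 44.1 for the neuronal factors.

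No summit within 1000 bp of a 5′ end or in an intron was found in any list at 8 of the 35 genes: mec-3, ceh-10, tab-1, cnd-1, ngn-1, che-1, fax-1 and mab-9. Farther out, fax-1 had a pooled summit 1494 bp upstream (43.5, replicate 2 only at 38.6). At ngn-1 one lay 1960 bp downstream of the 5′ end (37.5, replicate 2 only at 24.4). Within the same limits, a further 8 genes had no pooled candidate and a summit in 1 or both replicate lists, and 19 had a pooled candidate. The shares were 22.9% with none in any list (47.6% over all genes), 22.9% with replicate summits only (18.2%) and 54.3% with a pooled candidate (34.2%). The share of genes with a pooled promoter candidate was alike on X (4 of 9, 44.4%) and on autosomes (12 of 26, 46.2%), against 32.7% and 29.5% over all genes.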

How the data were processed

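Per the labels and the deposited file descriptions, the authors called regions in ce11 against a control for each replicate and for the pooled alignments, and kept a set by an optimal IDR threshold. The caller and its settings are stated in none of the sources used here. The signal value of a region is the authors' score, and the deposited lists also give each region's -log10 q-value, which ranked nothing here. The ce10 lists were not used.

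Summits (region start plus summit offset) were compared with Ensembl release 115 (WBcel235, the assembly of ce11) in Python 3.11.15. The 5′ ends were those of coding transcripts, and introns were sequence in no exon of the gene. A replicate supported a candidate with a summit within 200 bp. The counting was checked on planted summits. Since 1 group exists, no test was run. Shares are read beside those of all 19973 genes.

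The genes and comparison lists were chosen with earlier results of these data known. By rule, values were given for up to 12 genes by promoter and 8 by intron score, and others were added so that each gene is accounted for. In all, 4 listed homeobox symbols matched no gene. Windows in untranslated exons and on 1 chromosome were not printed. Alternatives were other distances, 5′ ends, score cut-offs, support distances and single replicates.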

Additional observations from a re-analysis of the deposited data

How the results depend on the processing

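Of 32 alternatives, 7 concerned the counts of 0 for the IDR set, and only the wider distance of 2000 bp could have raised them, which it did not. Of the other 25, 16 left a result alike (counts within 1.5 times of each other, and the median within 0.976, the SD between the replicates' medians, which is a rough yardstick because the lists do not share a scale). With only the upper 6736 regions of the pooled list, 8 genes had a promoter candidate (22.9%, against 17.5% of all genes) and 7 an intron candidate (20%, against 7%), and the median promoter score was 51.2. Within 500 and 2000 bp the median promoter score was 45.1 and 45.9. Genes with a promoter candidate in both replicates numbered 7 within 2000 bp and 5 with support within 500 bp. Leaving out a replicate gave 13 to 20 genes with a promoter candidate, 13 to 14 with an intron candidate, and a median of 23.7 to 25.1 on the replicates' own scales. Depth is unknown, so a missing candidate does not show an absence of binding, and summits of background and of weak binding cannot be told apart here.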
